A study of Mus musculus with 4 samples.

Results

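The genes described here make, sense and move cholesterol and fatty acids. They were taken by symbol from a list of 38 genes, and all 38 were found among the 23284 gene rows of the count files. RNA had been sequenced from leukemic cells of C57BL/6 mice sorted for high c-Kit, a receptor of immature blood cells, in a study of an MLL leukemia. The groups were 2 Msi2 -/- mice, which lack the RNA-binding protein Musashi 2, and 2 Msi2 flox/flox mice, which carry loxP-flanked alleles and are called controls here. Each library is 1 mouse. The sources used here do not give the MLL fusion, the Cre driver or the time of deletion.

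Cells make cholesterol from acetyl-CoA through mevalonate, farnesyl diphosphate and squalene, and fatty acids from acetyl-CoA through malonyl-CoA. When sterols in the endoplasmic reticulum fall, the escort protein SCAP carries the SREBP transcription factors to the Golgi, where they are cut and released to switch on these genes, while INSIG proteins hold them back. When sterols are plentiful, oxysterols activate the LXR nuclear receptors, which raise export pumps such as ABCA1 and ABCG1 and the ubiquitin ligase MYLIP, which removes lipoprotein receptors. Growing leukemic cells need both lipids for membranes.

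Gene counts per library lay between 72273679 and 87564774, and 3 counts corresponded to between 0.0343 and 0.0412 CPM (counts scaled for library size). Msi2 had 8 and 17 counts in the Msi2 -/- mice, against 2804 and 3562 counts in the controls. Among 11 progenitor markers tested, 7 lay above 0 on the log2 fold change scale and 4 below, and DESeq2 called 2 lower, Mpo and Myb. Mpo, a granule enzyme of myeloid progenitors, had 2116 and 2159 CPM in the Msi2 -/- mice, against 4001 and 4952 CPM in the controls. Myb had 500 and 591 CPM in the Msi2 -/- mice, against 740 and 690 CPM in the controls. Kit had 68.1 and 57.1 CPM in the Msi2 -/- mice, against 50.4 and 51.9 CPM in the controls. The Msi2 -/- mice differed widely from each other in Cd34 (79.8 and 7.02 CPM, against 20.3 and 43.4 CPM in the controls) and in Ctsg (920 and 3178 CPM, against 2291 and 2506 CPM). Markers of other blood cells were counted in the same libraries. Of 10 erythroid markers 5 were at 0 counts in all 4 libraries, of 7 B cell markers 3 (among them Pax5) and of 7 T cell markers 3 (among them Cd3e). The summed level of the B cell markers, nearly all of it Cd79b, was 21.1 and 18.7 CPM in the Msi2 -/- mice, against 26.8 and 26.8 CPM in the controls, and DESeq2 called Cd79b lower. That of the T cell markers, mostly Lck, was 7.05 and 9.87 CPM in the Msi2 -/- mice, against 9.41 and 10.5 CPM in the controls. Summed CPM of 11 neutrophil markers was 1463 and 2494 in the Msi2 -/- mice, against 1126 and 745 in the controls. Of the 10 neutrophil markers tested 7 lay above 0 and 3 below, and DESeq2 called 4 higher (S100a8, S100a9, Ltf and Lcn2) and 1 lower (Cxcr2). For 15 macrophage markers the sum was 62.6 and 156 CPM in the Msi2 -/- mice, against 57.5 and 79.8 CPM in the controls, and for 8 monocyte markers it was 978 and 2022 CPM in the Msi2 -/- mice, against 1455 and 1395 CPM in the controls. DESeq2 called 1 monocyte marker lower, Irf8, at 6.02 and 5.25 CPM in the Msi2 -/- mice, against 15.3 and 34.7 CPM in the controls. The part of these markers in the values below was not tested. Xist, the transcript of the inactive X chromosome, had 0.469 and 0.624 CPM in the Msi2 -/- mice, against 1454 and 654 CPM in the controls. The labels do not give the sex of the mice, and if the groups differed in sex, sex and genotype cannot be told apart for any gene described here. Library names begin with an unexplained number that differs between the groups, and if it marks a batch, batch and genotype cannot be told apart. In bulk samples, fewer cells of a type and less RNA per cell cannot be told apart.

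Most of the lipid genes had somewhat higher counts in the Msi2 -/- mice, and Fads2 and Mylip had the widest gap between the groups. Of the 38 members 37 had enough counts to be tested, and the remaining one, Hmgcs1, was at 0 counts in every library. The log2 fold change, Msi2 -/- over control, was above 0 for 31 of the 37 members and below 0 for 6, where 49.7% of all 13215 tested genes lay above 0. The median was 0.20 over the members and -0.0020 over all tested genes. In 25 members both Msi2 -/- mice lay above both controls, compared with 23.7% of all tested genes, and in 1 member both lay below, compared with 24.6%.

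None of these shifts passed edgeR's quasi-likelihood test after Benjamini-Hochberg adjustment over all tested genes, where 0.0% of genes were called higher and 0.00757% lower. Msi2 itself, at a log2 fold change of -8.07, had an adjusted p of 0.122 by edgeR. An adjusted p above 0.05 by edgeR is therefore not read as an unchanged level. The adjusted p of the members lay between 0.265 and 0.928 by edgeR. At an unadjusted p under 0.05 edgeR placed 8 members above the controls and 0 beneath them, beside 6.69% and 6.17% of all tested genes. DESeq2 at an adjusted p under 0.05 called 4 members higher and 0 lower, beside 3.1% and 2.71% of the genes with an adjusted p. These 4 were Fads2, Mylip, Abcg1 and Srebf2. On counts simulated from these libraries, with the spread that edgeR estimated, DESeq2 made more false calls than edgeR and recovered more of the planted changes. In that single draw both exceeded the nominal rate, DESeq2 by far more. Because the spread was edgeR's own estimate, the draw cannot rank the tools on the real counts. It remains a limit on every call that DESeq2 alone makes here.

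**Figure D1:**
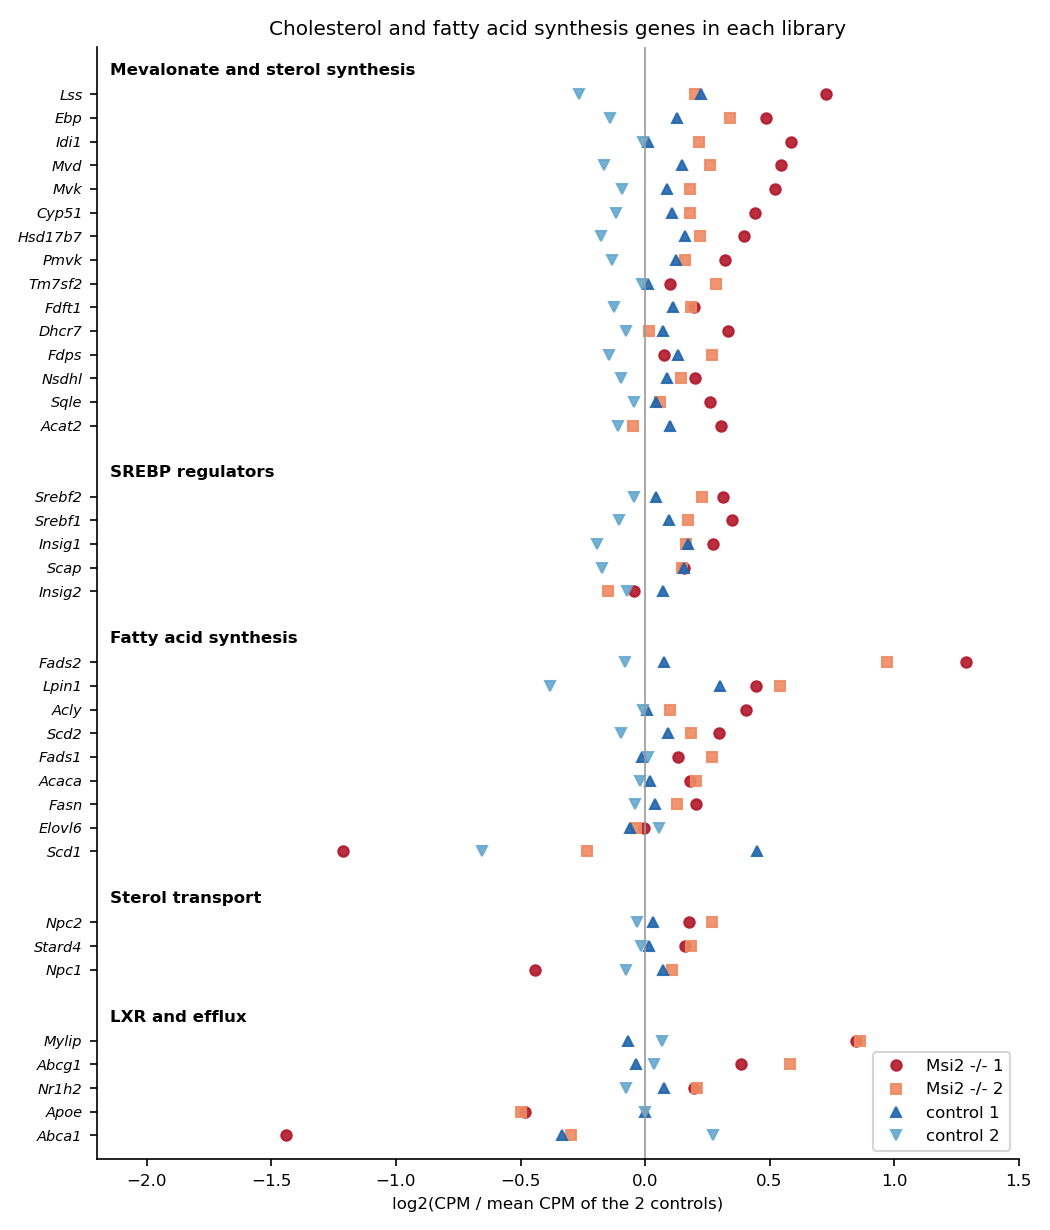
Level of the 37 tested members in each library, as log2 of CPM over the mean CPM of the controls, grouped by role and ordered by fold change. Each point is 1 mouse; in the sterol group the points of control 2 lie farthest left in all 15 genes, and Fads2, Mylip and Abcg1 show the Msi2 -/- points well to the right of both controls.

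The enzymes that build cholesterol formed the most uniform group. All 15 tested enzymes had a log2 fold change above 0, between 0.14 for Acat2 and 0.49 for Lss, with a median of 0.24. Over all tested genes 49.7% lay above 0. In 11 of the 15 enzymes both Msi2 -/- mice lay above both controls, compared with 23.7% of all tested genes. None of the 15 passed the adjusted test by either tool. Their summed level was 1506 and 1391 CPM in the Msi2 -/- mice, against 1319 and 1118 CPM in the controls.

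Ebp, the sterol isomerase that shifts a double bond late in the pathway, was the enzyme of smallest p. It had 89.5 and 81.1 CPM in the Msi2 -/- mice, against 70.0 and 58.0 CPM in the controls. The groups did not overlap, and control 2 was the lowest library. The log2 fold change was 0.41 (SE 0.121), and the adjusted p was 0.343 by edgeR and 0.0781 by DESeq2. Ebp and Nsdhl, a dehydrogenase of sterol demethylation, lie on chromosome X. Xist, whose values are given above, separated the groups without overlap, and its part in the values of these X-linked genes was not tested. Nsdhl had a log2 fold change of 0.17 (SE 0.0951).

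The early, mevalonate part of the pathway showed the same small shift. Mvk, mevalonate kinase, had 49.8 and 39.3 CPM in the Msi2 -/- mice, against 36.8 and 32.5 CPM in the controls. Mvd, the decarboxylase that yields isopentenyl diphosphate, had 107 and 87.9 CPM in the Msi2 -/- mice, against 81.1 and 65.4 CPM in the controls. Idi1, which isomerizes that product, had 26.5 and 20.5 CPM in the Msi2 -/- mice, against 17.8 and 17.5 CPM in the controls. For each of these 3 genes both Msi2 -/- mice lay above both controls, with replicate 1 the highest library. Their log2 fold changes were 0.36 (SE 0.157), 0.41 (SE 0.155) and 0.41 (SE 0.168), and their adjusted p by edgeR was 0.422, 0.395 and 0.408. Pmvk, the phosphomevalonate kinase between them, had a log2 fold change of 0.24 (SE 0.121).

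Further along the pathway the enzymes varied. Fdps, farnesyl diphosphate synthase, had 384 and 439 CPM in the Msi2 -/- mice, against 399 and 329 CPM in the controls, so that the groups overlapped. Processed copies of Fdps in the genome may share its reads. Sqle, squalene epoxidase, a rate-limiting step after mevalonate, had 111 and 96.1 CPM in the Msi2 -/- mice, against 95.1 and 89.3 CPM in the controls. Replicate 2 of the Msi2 -/- mice was then barely above control 1, and the log2 fold change was 0.16 (SE 0.0966). Lss, which closes squalene epoxide into the sterol rings, had 110 and 76.3 CPM in the Msi2 -/- mice, against 77.7 and 55.3 CPM in the controls. Here the mice stood apart from each other in both groups, and the groups overlapped, with Msi2 -/- replicate 2 just below control 1. The log2 fold change of 0.49 (SE 0.253) became 0.21 without Msi2 -/- replicate 1 and 0.75 without control 1. Cyp51, the lanosterol demethylase, had a log2 fold change of 0.32 (SE 0.132). Hsd17b7, a ketone reductase of the same branch, had one of 0.31 (SE 0.153). Fdft1 (squalene synthase), Tm7sf2 and Dhcr7 (sterol reductases) lay between 0.18 and 0.20.

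Acat2, the acetoacetyl-CoA thiolase of the cytosol, had the smallest log2 fold change of the enzymes. It had 91.8 and 71.7 CPM in the Msi2 -/- mice, against 79.6 and 68.9 CPM in the controls. The groups overlapped, and the sign depended on 1 mouse, with a log2 fold change of -0.040 without Msi2 -/- replicate 1. Hmgcs1, the cytosolic HMG-CoA synthase next in the pathway, was listed at 0 counts in all 4 libraries while the enzymes before and after it were well covered. Only if its reads were assigned to it would a value of 0 allow at most 0.0343 and 0.0390 CPM in the Msi2 -/- mice. In the controls that limit of 3 counts would be 0.0370 and 0.0412 CPM. How reads of this gene were assigned was not tested, and no level is read from it.

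Part of the shift in the sterol enzymes moved with single libraries. Control 2 was the lowest of the 4 libraries for 15 of the 15 enzymes, compared with 27.4% of all tested genes. In 13 of the 15, Msi2 -/- replicate 1 lay above replicate 2, as it did in 6619 of all 13215 tested genes. Without control 2 all 15 log2 fold changes were still above 0 and their median was 0.16, and without control 1 it was 0.38. Without Msi2 -/- replicate 1 the median was 0.19 with 14 of 15 above 0.

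**Figure D2:**
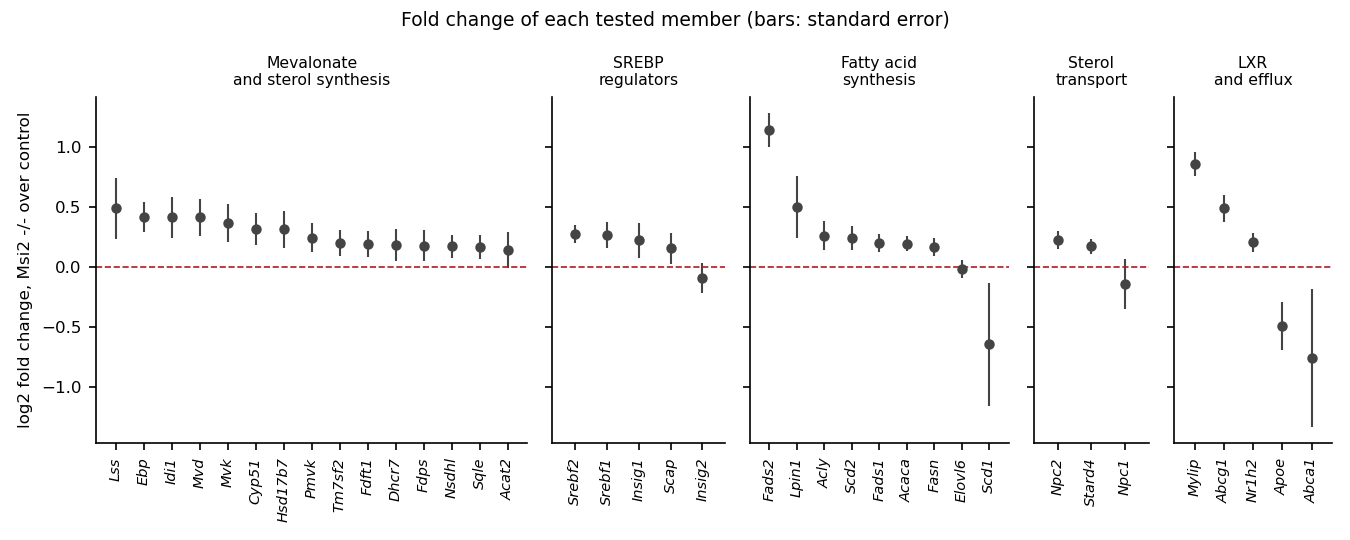
Log2 fold change of each tested member, Msi2 -/- over control, with its standard error, by role. The dashed line is the median of all tested genes; the sterol enzymes form a shallow slope above it, and Fads2 and Mylip are the highest points at 1.14 and 0.85.

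Among the switches of the pathway, Srebf2 stood higher in the Msi2 -/- cells. Srebf2 encodes SREBP2, the factor that mainly drives cholesterol synthesis. It had 302 and 286 CPM in the Msi2 -/- mice, against 251 and 236 CPM in the controls. The groups did not overlap, and within each group the mice were close to each other. The log2 fold change was 0.27 (SE 0.073), and the adjusted p was 0.335 by edgeR and 0.0329 by DESeq2. With any library left out it stayed between 0.23 and 0.32, while DESeq2's adjusted p lay between 0.192 and 0.935.

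Srebf1, whose products mainly drive fatty acid synthesis, had 263 and 233 CPM in the Msi2 -/- mice, against 221 and 192 CPM in the controls. All Msi2 -/- values were again above the controls, at a log2 fold change of 0.26 (SE 0.109) and an adjusted p of 0.414 by edgeR. Insig1, which retains SREBPs and is itself an SREBP target, had 72.7 and 67.5 CPM in the Msi2 -/- mice, against 67.7 and 52.6 CPM in the controls. Msi2 -/- replicate 2 and control 1 were level, and the log2 fold change of 0.22 (SE 0.145) became 0.05 without control 2. Scap, which encodes the escort protein, had one of 0.15 (SE 0.128), and of -0.00031 without control 2. Insig2, which encodes the related retention protein, lay at -0.10 (SE 0.124).

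Fads2 showed the widest difference of all members. It encodes the delta-6 desaturase, which begins the conversion of essential fatty acids into long polyunsaturated ones. Fads2 had 99.2 and 79.6 CPM in the Msi2 -/- mice, against 42.8 and 38.4 CPM in the controls. Both Msi2 -/- mice were far above both controls, a 2.20-fold difference that exceeded the spread within each group. The log2 fold change was 1.14 (SE 0.139), and the adjusted p was 0.269 by edgeR and 2.38e-09 by DESeq2. It lay between 0.98 and 1.29 with any library left out, and DESeq2 called it in each of those 4 fits.

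Fads1, the delta-5 desaturase gene of the same conversion, moved far less. It had 93.9 and 103 CPM in the Msi2 -/- mice, against 85.0 and 86.3 CPM in the controls. The groups did not overlap, and the log2 fold change was 0.20 (SE 0.0759), and the adjusted p was 0.395 by edgeR. The difference between Fads2 and Fads1 was not tested.

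Of the enzymes that build the saturated chain, Acly, Acaca and Fasn stood a little higher, and Elovl6 did not. Acly, which supplies cytosolic acetyl-CoA from citrate, had 567 and 459 CPM in the Msi2 -/- mice, against 431 and 426 CPM in the controls. Msi2 -/- replicate 1 stood apart from the other 3 libraries, and the log2 fold change was 0.26 (SE 0.12). Acaca, the acetyl-CoA carboxylase that makes malonyl-CoA, had 98.3 and 99.9 CPM in the Msi2 -/- mice, against 88.0 and 85.5 CPM in the controls. Its mice agreed closely within groups, which gave a log2 fold change of 0.19 (SE 0.062), an unadjusted p of 0.0332 and an adjusted p of 0.362 by edgeR. Fasn, fatty acid synthase, had 699 and 663 CPM in the Msi2 -/- mice, against 623 and 590 CPM in the controls. That is a log2 fold change of 0.17 (SE 0.0725) without overlap of the groups. Elovl6, which elongates palmitate, was level at 111 and 108 CPM in the Msi2 -/- mice, against 106 and 115 CPM in the controls.

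The stearoyl-CoA desaturases, which put the first double bond into saturated chains, did not move together. Scd2 had 1376 and 1275 CPM in the Msi2 -/- mice, against 1194 and 1048 CPM in the controls, a log2 fold change of 0.24 (SE 0.0981). Scd1 had 12.4 and 24.4 CPM in the Msi2 -/- mice, against 39.2 and 18.2 CPM in the controls. Its groups overlapped, and its log2 fold change of -0.64 (SE 0.51) was -1.21 when Msi2 -/- replicate 2 was left out and 0.015 when control 1 was. Per kilobase of exon, the level of Scd2 was 243 CPM in the Msi2 -/- mice and 205 CPM in the controls, and that of Scd1 was 3.76 CPM in the Msi2 -/- mice and 5.87 CPM in the controls. These genes are close in sequence, so their counts may share reads. Lpin1, a phosphatidate phosphatase gene and SREBP target, had 25.2 and 26.9 CPM in the Msi2 -/- mice, against 22.8 and 14.2 CPM in the controls. Its log2 fold change of 0.50 (SE 0.259) was 0.19 without control 2 and 0.88 without control 1.

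Of the genes that move sterols inside the cell, Stard4 and Npc2 stood a little higher. Stard4, a cytosolic sterol carrier, had 93.2 and 94.9 CPM in the Msi2 -/- mice, against 84.4 and 82.5 CPM in the controls. Npc2, which passes cholesterol out of the lysosome lumen, had 286 and 304 CPM in the Msi2 -/- mice, against 258 and 247 CPM in the controls. Neither group pair overlapped, at log2 fold changes of 0.17 (SE 0.0615) and 0.22 (SE 0.0718), unadjusted p of 0.0452 and 0.0322, and adjusted p of 0.382 and 0.36 by edgeR. Npc1, the membrane partner of Npc2, had 49.8 and 72.9 CPM in the Msi2 -/- mice, against 71.2 and 64.2 CPM in the controls. Its groups overlapped and the Msi2 -/- mice lay on either side of the controls.

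The genes of the LXR response split. Mylip, the ubiquitin ligase gene, had 44.9 and 45.3 CPM in the Msi2 -/- mice, against 23.8 and 26.1 CPM in the controls. The Msi2 -/- mice were nearly identical and 1.81-fold above the controls. The log2 fold change was 0.85 (SE 0.102), and the adjusted p was 0.265 by edgeR and 7.66e-10 by DESeq2. It stayed between 0.79 and 0.93 with any library left out, and DESeq2 called it in each of those 4 fits.

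Abcg1, a cholesterol exporter gene, had 39.6 and 45.4 CPM in the Msi2 -/- mice, against 29.6 and 31.1 CPM in the controls. The groups did not overlap, and the log2 fold change was 0.49 (SE 0.113), and the adjusted p was 0.312 by edgeR and 0.0126 by DESeq2. DESeq2's adjusted p was 0.0487 without Msi2 -/- replicate 1 and between 0.314 and 0.504 without any other library. Nr1h2, the gene of LXR-beta, had 112 and 113 CPM in the Msi2 -/- mice, against 103 and 92.7 CPM in the controls, a log2 fold change of 0.20 (SE 0.0797).

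Apoe and Abca1, further LXR targets, lay on the other side. Apoe, the lipoprotein gene, had 4.56 and 4.51 CPM in the Msi2 -/- mice, against 6.38 and 6.38 CPM in the controls. It was the only member with both Msi2 -/- mice below both controls, at a log2 fold change of -0.49 (SE 0.197) and an adjusted p of 0.406 by edgeR and 0.209 by DESeq2. Abca1, the exporter that loads cholesterol onto apolipoproteins, had 19 and 37 counts in the Msi2 -/- mice, against 38 and 52 counts in the controls, which is under 1 CPM in each library. The groups overlapped, and its log2 fold change of -0.76 (SE 0.573) ran from -1.43 to -0.29 with a library left out. Apoe and the exporters are also expressed by macrophages. Of the 15 macrophage markers 6 had enough counts to be tested, and C1qc, Timd4 and Cd5l were at 0 counts in every library. Of the 6, 4 lay above 0 and 2 below. Csf1r and Cd68 were above the controls without overlap, Vcam1 was below them without overlap, and DESeq2 called Csf1r alone. The part of these cells, and of the neutrophil and monocyte markers given above, in the values of Mylip and Abcg1 was not tested.

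**Figure D3:**
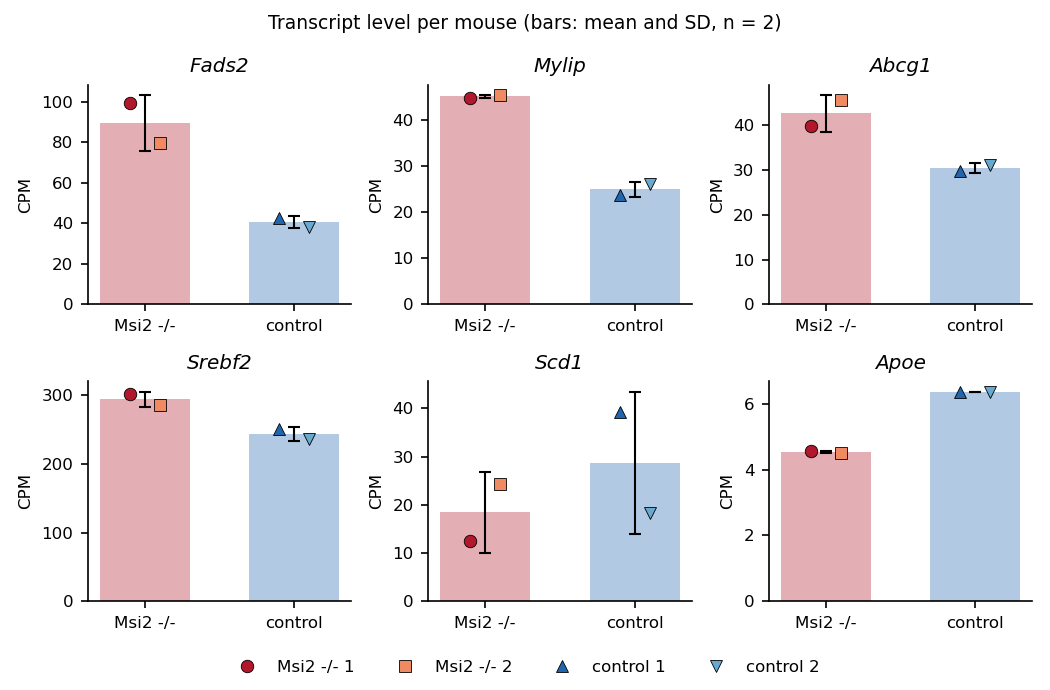
CPM of 6 members in each mouse, with the group mean and SD (n = 2) as bars, Msi2 -/- left and control right. Fads2, Mylip, Abcg1 and Srebf2 have both Msi2 -/- mice above both controls, Scd1 overlaps, and Apoe has both below.

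**Figure D4:**
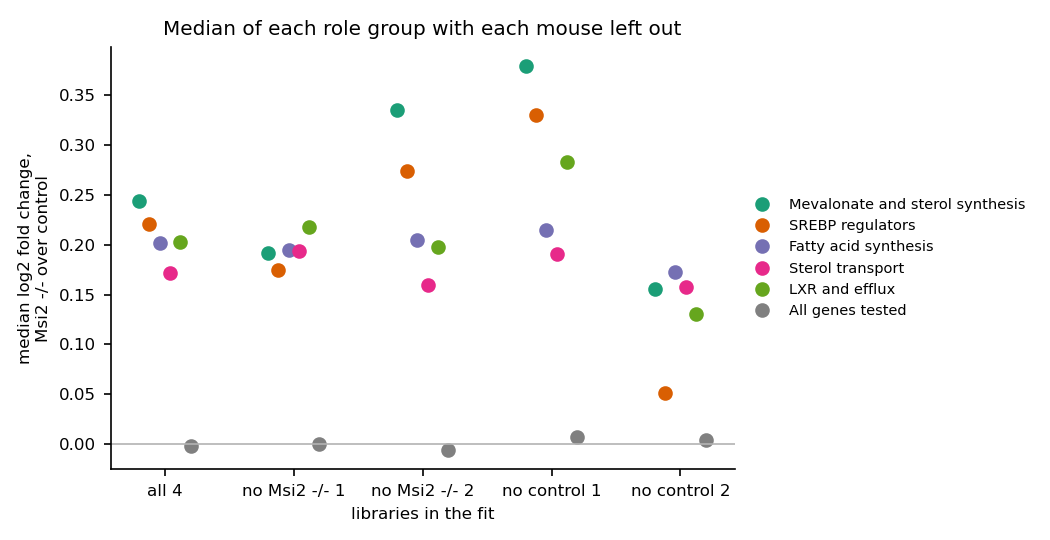
Median log2 fold change of each role group, Msi2 -/- over control, with all libraries and with each mouse left out; the grey points are all tested genes. The medians of the 5 groups stayed above 0 in these fits, and that of the SREBP regulators was 0.051 without control 2.

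Promoter sequence was described for all members that had an entry, not for the sterol enzymes alone. The 250 bases before each RefSeq start site (build GRCm38.p6) were found for 29 of the 38 members, in 39 windows, and Fdps, Fdft1, Sqle, Scd1, Scd2, Fads1, Stard4, Npc1 and Abcg1 had no entry. The CCAAT box, the site of the factor NF-Y that acts beside SREBPs, was searched on both strands. It was present in 51.3% of member windows and 33.8% of all 32851 windows. The core of the sterol regulatory element, TCACCCCAC on either strand, was in 2.56% of member windows, that of Hmgcs1 alone, and in 0.496% of all windows. The looser TCACNCCAC, which includes the core, was in 2.56% and 1.05%. The E-box CACGTG was in 12.8% of member windows and 6.02% of all windows. A match is a description of the letters and not evidence of binding.

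Shown here are the windows of Mylip, the member of smallest edgeR p, of Ebp, the sterol enzyme of smallest p, and of Mvk, the member window with the most CCAAT matches. Each is written 5′ to 3′ on the strand of the gene, on build GRCm38.p6 as RefSeq gives it, with capitals marking CCAAT or its complement ATTGG.
Mylip (chr13:45389492-45389741, plus strand): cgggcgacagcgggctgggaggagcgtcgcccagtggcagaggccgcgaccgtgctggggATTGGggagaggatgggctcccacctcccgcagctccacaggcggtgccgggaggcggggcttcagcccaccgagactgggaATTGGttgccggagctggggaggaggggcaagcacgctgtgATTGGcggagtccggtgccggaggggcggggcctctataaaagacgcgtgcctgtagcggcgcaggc
Ebp (chrX:8193513-8193762, minus strand): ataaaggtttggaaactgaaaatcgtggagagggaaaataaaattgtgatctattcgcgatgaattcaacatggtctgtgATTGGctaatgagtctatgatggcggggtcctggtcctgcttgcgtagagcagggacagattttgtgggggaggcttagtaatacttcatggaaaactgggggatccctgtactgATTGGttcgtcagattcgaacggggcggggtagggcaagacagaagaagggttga
Mvk (chr5:114444019-114444268, plus strand): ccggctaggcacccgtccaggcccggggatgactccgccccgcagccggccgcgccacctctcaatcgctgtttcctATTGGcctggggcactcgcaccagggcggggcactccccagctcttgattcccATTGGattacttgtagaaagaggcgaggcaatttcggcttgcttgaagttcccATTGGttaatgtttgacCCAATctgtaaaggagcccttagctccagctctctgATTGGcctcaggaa
Mvk shows 5 matches, Mylip 3 and Ebp 2. The window of Fads2, the member of widest difference, is not shown and held no CCAAT match. A relation of matches to fold change was not tested.

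Other genes of these pathways were read from 2 further lists. Of 30 tested sterol genes 16 lay above 0 on the log2 fold change scale and 14 beneath it, and the median was 0.015. By edgeR 0 passed the adjusted test, and at an unadjusted p under 0.05 it had 5 above and 1 beneath, while DESeq2 called 3 higher and 1 lower. Over all genes these shares were 6.69% and 6.17% by edgeR, and 3.1% and 2.71% by DESeq2. Sc5d and Lbr were among those called higher. Sc5d, the sterol desaturase late in cholesterol synthesis, had 86.5 and 70.5 CPM in the Msi2 -/- mice, against 52.2 and 40.3 CPM in the controls. Its log2 fold change of 0.76 (SE 0.176) had an adjusted p of 0.308 by edgeR and 0.00471 by DESeq2, without overlap of the groups. Lbr, a nuclear envelope protein with sterol reductase activity, had 465 and 473 CPM in the Msi2 -/- mice, against 376 and 393 CPM in the controls. Nceh1, a cholesteryl ester hydrolase gene, showed a log2 fold change of 0.38 (SE 0.126). Vldlr, called lower by DESeq2, had 5 and 2 counts in the Msi2 -/- mice, against 12 and 187 counts in the controls, so that its difference came mostly from control 2.

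Of 36 tested genes of the wider fatty acid list 24 lay above 0 and 12 beneath it, and the median was 0.12. By edgeR 0 passed the adjusted test, and at an unadjusted p under 0.05 it had 4 above and 2 beneath (6.69% and 6.17% over all genes), while DESeq2 called 1 higher and 0 lower. That is close to the 3.1% and 2.71% it called over all genes, and nothing about the list is read from it. The gene called was Dgat1, an acyltransferase of the last step of triglyceride synthesis. It had 57.9 and 72.2 CPM in the Msi2 -/- mice, against 43.9 and 44.5 CPM in the controls, a log2 fold change of 0.56 (SE 0.13), and the adjusted p was 0.313 by edgeR and 0.0143 by DESeq2. Dgat2, the other such enzyme, had a log2 fold change of 0.51 (SE 0.162). Elovl1, an elongase of very long chains, and Acsl1, an acyl-CoA synthetase, lay at 0.41 (SE 0.137) and 0.29 (SE 0.105). Acsl3, another acyl-CoA synthetase, lay at -0.40 (SE 0.115), and Mlxipl, the gene of the carbohydrate response factor ChREBP, at -0.98 (SE 0.273). Both had all Msi2 -/- values below the controls, at adjusted p of 0.336 and 0.335 by edgeR.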

How the data were processed

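RNA of 4 libraries was extracted with Trizol and RNeasy, made into TruSeq libraries and read from both ends on an Illumina HiSeq, per the labels' protocols. The authors deposited raw counts per gene symbol. The submitters' processing notes name Trimmomatic, STAR, HTSeq, DESeq and mm9. The sources used here do not give the annotation or strand setting, so reads of genes that overlap cannot be told apart. The 5 closing rows that name no gene held between 19.1% and 20.1% of counts and were left out.

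In R 4.3.3, edgeR 4.0.16 (filterByExpr, minimum count 10, minimum total 15, TMM scaling, quasi-likelihood F test, group as the only term) was fitted to all genes, and 13215 were tested, two-sided, with Benjamini-Hochberg adjustment over all of them at 0.05. CPM use TMM-scaled library sizes. Standard errors come from the F statistic. DESeq2 1.42.0 (Wald test, no shrinkage) gave an adjusted p for 13350 genes. Limits of 3 counts cover counting error only. Replicates differed by more than sampling noise (chi-square per gene 151 between the Msi2 -/- mice and 62.1 between the controls), so each counts as 1 sample. Exon lengths are unions of GENCODE M21 exons, an annotation other than the authors'. Chromosomes came from RefSeq GRCm38.p6 by symbol, where 98.9% of gene rows matched.

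Members and lists were chosen with earlier results of these data known. Values in every library were given for a set of named members whatever their result, for members past an unadjusted p of 0.05 by edgeR or called by DESeq2, and for the member of largest change in each role group. Of the wider lists, up to 6 genes each were named, smallest p first, and some that the rule would name are not reported here. Both fits were tested on simulated counts. Alternatives were RLE scaling, upper-quartile scaling, fitting without a filter, a filter of 1 CPM in 2 libraries, DESeq2, limma-voom (limma 3.58.1), edgeR's likelihood ratio test, the replicate number as a block, and leaving out each library. DESeq2 with a library left out was added after the data were examined.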

Additional observations from a re-analysis of the deposited data

How the results depend on the processing

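With 2 mice a group, fits without a library take the spread of the lone mouse from the other group. Over all genes edgeR called 0 higher and 1 lower; DESeq2 called 414 and 362, the likelihood ratio test 120 and 192, and limma-voom 0 and 0. With no filter 6 were called lower. Without a library edgeR called between 0 and 23 higher and between 0 and 83 lower, and DESeq2 called 291, 299, 220 and 102 higher and 336, 600, 170 and 95 lower, without Msi2 -/- replicate 1, Msi2 -/- replicate 2, control 1 and control 2 in that order. Of the members edgeR called 0, DESeq2 called 4 higher, and the likelihood ratio test 2 (Fads2 and Mylip). The members called changed when a library was left out. By edgeR only Fads2 was then called, and only without Msi2 -/- replicate 2. DESeq2 called Fads2 and Mylip whichever library was left out, Abcg1 only without Msi2 -/- replicate 1, and Srebf2 in none of these fits. It called Lss and Acly only without Msi2 -/- replicate 2, and Lpin1 only without control 1. At an unadjusted p under 0.05 the 8 members higher became 17 by DESeq2, between 3 (without control 2) and 13 (without Msi2 -/- replicate 2) by edgeR without a library, and 3 to 15 (14 without Msi2 -/- replicate 2) by DESeq2 without a library. The 0 lower became 1 by DESeq2 and 1 by limma-voom, between 0 and 1 by edgeR and between 0 and 2 by DESeq2 without a library. The count of members above 0 was 31, or 32 without control 1 by edgeR.

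The replicate number as a block removed the single call over all genes (0 higher and 0 lower), called 0 members, and left the members' median at 0.21. Same-numbered mice did not deviate together (correlation 0.01), and with 2 pairs the titles share only a number, so the block is no pairing of mice. Medians with a library left out lay between 0.16 and 0.32 for all members, between 0.16 and 0.38 for sterol synthesis, between 0.051 and 0.33 for the SREBP regulators, between 0.17 and 0.22 for fatty acid synthesis, between 0.16 and 0.19 for sterol transport, and between 0.13 and 0.28 for the LXR genes. Upper-quartile scaling shifted all genes by -0.02 and gave 0.18, 0.15 and 0.18 for the last 3 groups. A filter of 1 CPM in 2 libraries dropped Abca1 and gave 0.34 for the LXR genes. Signs reversed for Acat2 (-0.040 by edgeR and -0.043 by DESeq2) and Npc1 (0.12 and 0.11) without Msi2 -/- replicate 1, for Scd1 (0.015 and 0.017) without control 1, for Elovl6 (0.042 and 0.047) and, by edgeR, Scap (-0.00031) without control 2. By edgeR the log2 fold change with a library left out lay between -0.040 and 0.31 for Acat2, -1.21 and 0.015 for Scd1, -0.076 and 0.042 for Elovl6, and -0.44 and 0.12 for Npc1. The cause of these changes was not tested.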
